A study of Homo sapiens with 14 samples.

Results

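The human mitochondrial genome carries 37 genes, and all of them were taken here by their GENCODE symbols, which start with MT-: 13 mRNAs, 2 rRNAs and 22 tRNAs out of 60876 annotated genes. Their reads were followed in 14 poly(A)-selected RNA-seq libraries of MDA-MB-231, a triple-negative breast cancer cell line. Cells received 5 µM of RBI2 or 5 µM of CX-5461 for 10, 30 or 120 min, with 2 libraries for each of these 6 groups. Another 2 libraries served as control, which the study calls untreated in one place and DMSO-treated in another. RBI2 is an inhibitor of ribosome biogenesis, and CX-5461 is an inhibitor of RNA polymerase I that served as the comparator. All groups were cultures of this 1 cell line, and nothing in the sources states that the replicates came from separate days or passages, so the p-values measure the spread between these libraries, which may be technical. Time marks in the names of the deposited tables do not all match the sample labels, so each time below is the time of the label.

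Mitochondrial DNA is transcribed from both strands into long precursors, and the tRNAs between the other genes are cut out to release mRNAs and rRNAs. The mRNAs encode subunits of complexes I, III and IV and of the ATP synthase, whereas the rRNAs MT-RNR1 and MT-RNR2 form the small and large subunits of the mitochondrial ribosome. The mitochondrial poly(A) polymerase MTPAP adds short tails to most of these mRNAs and shorter ones to the rRNAs, and in several mRNAs the tail completes the stop codon. MT-ND6, the only mRNA on the light strand, is known to lack a stable tail, as do mature tRNAs. Poly(A) capture therefore reads these classes on different footings, and a level below is the amount of RNA recovered by that capture. In bulk libraries, fewer mitochondria per cell and less RNA per mitochondrion cannot be told apart.

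All 37 annotated transcripts matched the mitochondrial chromosome of hg38, 16569 bases long, base for base. Of the 13 mRNAs, 7 ended in a complete stop codon and 6 ended in T or TA only. The ends of the 4 genes on which the results turn are shown to make this difference in 3′ ends visible, 5′ to 3′ with the bases of the annotated stop in capitals. They lie at chrM:1572-1601 (plus strand), chrM:3200-3229 (plus strand), chrM:15858-15887 (plus strand) and chrM:14149-14178 (minus strand).
MT-RNR1: aagtgtactggaaagtgcacttggacgaac
MT-RNR2: tatacccacacccacccaagaacagggttt
MT-CYB: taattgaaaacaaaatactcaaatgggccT
MT-ND6: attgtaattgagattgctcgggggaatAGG
MT-CYB ended in a lone T, and MT-ND6 in AGG. The longest run of A in the MT-RNR1 gene was 6 bases, and the longest in any of the 37 genes was 8 bases, in MT-ND5.

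Several mRNAs share bases with a neighbour, which bears on how their reads were divided. MT-ATP8 and MT-ATP6 share 46 bases, in capitals between 10 bases of either side at chrM:8517-8582 (plus strand), and MT-ND4L and MT-ND4 share 7, shown likewise at chrM:10750-10776 (plus strand).
MT-ATP8/MT-ATP6: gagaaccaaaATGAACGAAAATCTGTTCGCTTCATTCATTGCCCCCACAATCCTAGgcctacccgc
MT-ND4L/MT-ND4: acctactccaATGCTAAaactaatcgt
MT-ATP6 and MT-CO3 share 1 base. Reads inside the overlaps were split between partners by the quantifier, so the single values of these 5 mRNAs are uncertain to that extent.

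The libraries held 13966439 to 24581719 reads on annotated genes, with a median of 16124793. Of the markers of the cell line, VIM had 2745 to 3336 CPM (reads on the gene, scaled to a common library total), CD44 had 882 to 1121 and AXL had 1065 to 1536. PGR was at 0 in all 14 libraries, and ESR1 and CDH1 did not exceed 0.239 and 0.303 CPM. EPCAM, also listed as low or absent in this line, had 9.31 to 14.5 CPM. ERBB2, which defines another breast cancer subtype when amplified, had 44.9 to 79.0 CPM. The markers of blood cells summed to at most 0.501 CPM. Control replicate 2 stood apart from the other 13 libraries. Its summed CPM over 78 nuclear genes for subunits of oxidative phosphorylation was 6126, against 7790 to 9992 in the others, and its TMM factor was 0.856 against 0.966 to 1.04. In the main test, edgeR with a filter on low counts, calls against control are given with and without this library. Those by DESeq2 or with no filter are given with it only.

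The mitochondrial genes took 8.14% to 11.3% of the reads in 13 libraries and 20.6% in control replicate 2. Control replicate 1 had 9.55%. The CX-5461 pairs had 8.96% and 8.43% (10 min), 8.90% and 8.26% (30 min) and 8.68% and 8.55% (120 min). The RBI2 pairs had 8.39% and 8.65% (10 min), 9.57% and 8.14% (30 min) and 9.36% and 11.3% (120 min). Both RBI2 libraries at 120 min lay above all 6 CX-5461 libraries, while the RBI2 pair at 30 min lay on either side of them. Each share had a Wilson 95% interval at most 0.0414 percentage points wide, which covers counting error only. The mRNAs alone took 7.52% to 10.1% of the reads outside control replicate 2 and 19.6% in it.

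The ratio of rRNA reads to mRNA reads was 0.0656 in control replicate 1 and 0.0509 in control replicate 2. It was 0.0929 and 0.100 in the 10 min CX-5461 pair, 0.0817 and 0.0839 in the 30 min pair and 0.0906 and 0.0931 in the 120 min pair. The RBI2 pairs had 0.0644 and 0.0735 (10 min), 0.0747 and 0.0813 (30 min) and 0.108 and 0.112 (120 min). At the 10 and 30 min labels both RBI2 libraries lay below both CX-5461 libraries, and at 120 min both lay above. By summed TPM the pairs at 30 min overlapped, with 0.0543 and 0.0574 for RBI2 and 0.0547 and 0.0569 for CX-5461. All 6 CX-5461 libraries were above control replicate 1, whereas 1 RBI2 library at 10 min was below it. These are descriptions of 2 libraries per group, with no test.

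The ratio of MT-RNR1 to MT-RNR2 reads separated the compounds more sharply. It was 0.142 and 0.0844 in the controls, ranged from 0.0980 to 0.163 over the 6 CX-5461 libraries and from 0.167 to 0.392 over the 6 RBI2 libraries. The ranges of the compounds did not overlap, although the lowest RBI2 library (10 min, replicate 1) and the highest CX-5461 library (30 min, replicate 2) were close. At 120 min the RBI2 pair had 0.376 and 0.392, whereas the CX-5461 pair had 0.117 and 0.0980.

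**Figure D1:**
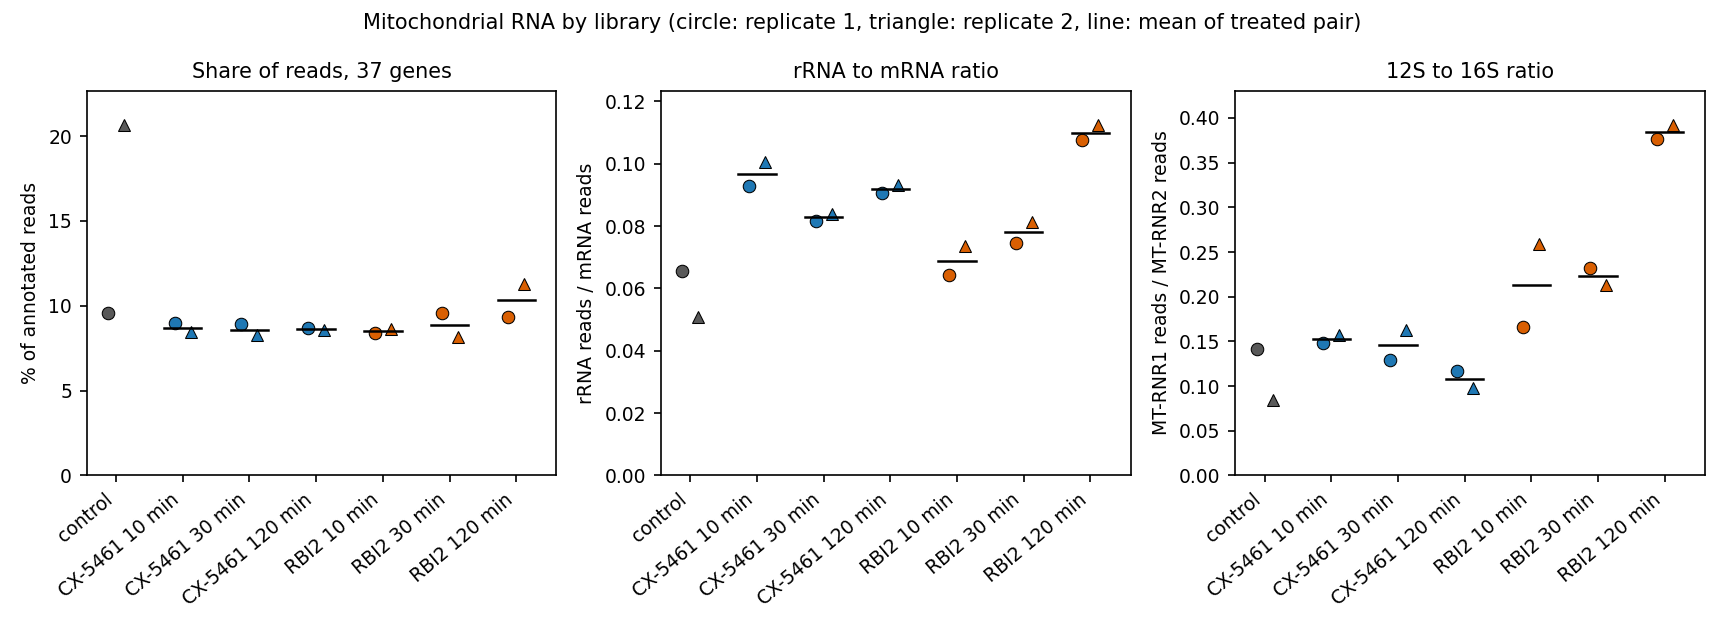
Share of annotated reads on the 37 mitochondrial genes (%), ratio of rRNA to mRNA reads, and ratio of MT-RNR1 (12S) to MT-RNR2 (16S) reads in each of the 14 libraries; circles are replicate 1, triangles replicate 2 and lines the mean of a treated pair. Control replicate 2 stands at 20.6% in the first panel, and the RBI2 pair at 120 min stands at 0.376 and 0.392 in the last.

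MT-RNR1 (chrM:648-1601, plus strand), the small-subunit rRNA, rose with RBI2 at the 120 min label. Its level, in CPM scaled by the trimmed mean of M-values (TMM), was 717 and 909 in the controls, 965 and 1031 in the 10 min CX-5461 pair, 755 and 879 in the 30 min pair and 758 and 673 in the 120 min pair. The RBI2 pairs had 715 and 1202 (10 min), 1222 and 1031 (30 min) and 2451 and 3239 (120 min). The last pair lay above all other libraries, and at 10 min replicate 1 was as low as control replicate 1 while replicate 2 was among the higher libraries. In edgeR's quasi-likelihood test over all 15426 genes that passed the filter on low counts, with Benjamini-Hochberg adjustment and calls at an adjusted p under 0.05, MT-RNR1 was higher than control in RBI2 at 120 min by a log2 fold change of 1.81 (SE 0.228, adjusted p = 0.00425). It was also higher than in CX-5461 at 120 min, by 1.99 (SE 0.229, edgeR adjusted p = 0.00530). Without control replicate 2 the difference from control was 1.98 (edgeR adjusted p = 0.00715), the lone control being assumed to vary like the other groups. Without replicate 2 of RBI2 at 120 min the difference from CX-5461 was 1.77 and missed the threshold (edgeR adjusted p = 0.0553).

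At the earlier labels the fold changes of MT-RNR1 with RBI2 were smaller and were not called. Against control the log2 fold change was 0.24 (95% interval -0.25 to 0.73) at 10 min and 0.47 (-0.02 to 0.96) at 30 min. Against CX-5461 it was -0.06 (-0.55 to 0.43) at 10 min and 0.46 (-0.03 to 0.96) at 30 min. The RBI2 minus CX-5461 difference was larger at 120 min than at 10 min, by 2.05 on the log2 scale (SE 0.316, edgeR adjusted p = 0.0112), in a comparison that called 4.22% of all genes. With CX-5461 the log2 fold changes of MT-RNR1 from control were 0.30, 0.01 and -0.18 at 10, 30 and 120 min, and none was called. With no filter on low counts edgeR called MT-RNR1 higher at 30 min with RBI2 than control, by 0.50 (adjusted p = 9.2e-05), and than CX-5461, by 0.45 (adjusted p = 0.00263). It also called MT-RNR1 higher than control with CX-5461 at 10 min, by 0.33 (adjusted p = 0.0241).

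MT-RNR2 (chrM:1671-3229, plus strand), the large-subunit rRNA, had its highest RBI2 levels at 120 min, as MT-RNR1 did. Its TMM-scaled CPM was 5067 and 10775 in the controls, 6518 and 6557 in the 10 min CX-5461 pair, 5838 and 5389 in the 30 min pair and 6467 and 6870 in the 120 min pair. The RBI2 pairs had 4289 and 4649 (10 min), 5265 and 4837 (30 min) and 6514 and 8271 (120 min). At 10 min both RBI2 libraries lay below all 6 CX-5461 libraries, whereas at 120 min the pairs overlapped. In the filtered edgeR fit of all 14 libraries no comparison of MT-RNR2 was called. DESeq2 called it lower than control with RBI2 at 10 min, by -0.81 (adjusted p = 0.0462). With no filter on low counts edgeR called it lower in 5 of the 10 comparisons, including RBI2 against CX-5461 at 10 min, by -0.57 (edgeR adjusted p = 1.6e-06). Without control replicate 2, MT-RNR2 was higher than the lone control in RBI2 at 120 min by 0.54 (SE 0.117, edgeR adjusted p = 0.0233). In a fit of only the 12 treated libraries, chosen after seeing the data, it was lower with RBI2 than with CX-5461 at 10 min by a log2 difference of -0.56 (SE 0.0941, edgeR adjusted p = 0.00476).

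Nuclear RNAs that lack a poly(A) tail were summed beside MT-RNR1, as a description with no test. The 10 measured members of that list summed to 35.4 and 7.96 CPM in the controls, to 15.04 to 35.6 CPM over the CX-5461 libraries, and to 64.6 to 78.7, 40.6 to 55.9 and 106 to 164 CPM in the RBI2 pairs at 10, 30 and 120 min. By this sum all 6 RBI2 libraries were above all CX-5461 and control libraries. The sum was carried mainly by the signal recognition particle RNAs RN7SL1 and RN7SL2, which reached 61.3 and 63.3 CPM. RN7SK and RPPH1 also had reads in every library, while the 5 spliceosomal RNAs were at 0 in 9 to 13 libraries. The authors also set aside reads that aligned to the nuclear ribosomal DNA before this quantification. The part of poly(A) capture, or of that removal, in the MT-RNR1 result was not tested.

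**Figure D2:**
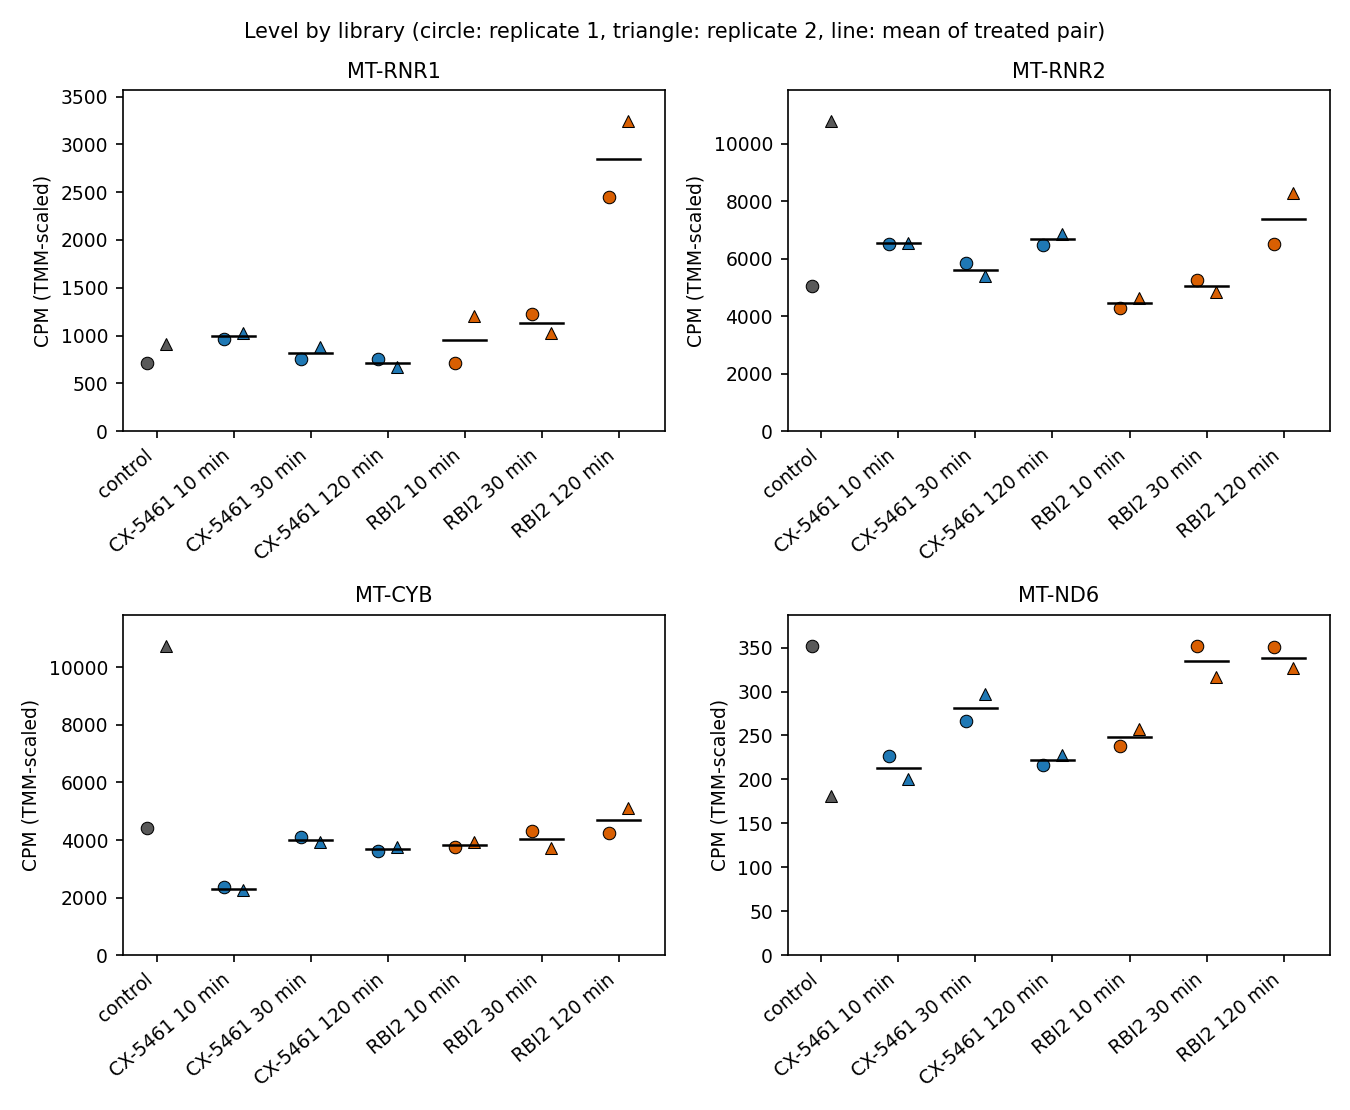
TMM-scaled CPM of MT-RNR1, MT-RNR2, MT-CYB and MT-ND6 in each of the 14 libraries; circles are replicate 1, triangles replicate 2 and lines the mean of a treated pair. MT-RNR1 is highest in the RBI2 pair at 120 min (2451 and 3239), MT-CYB is lowest in the CX-5461 pair at 10 min (2364 and 2269), and MT-ND6 is lowest in control replicate 2 (181).

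**Figure D3:**
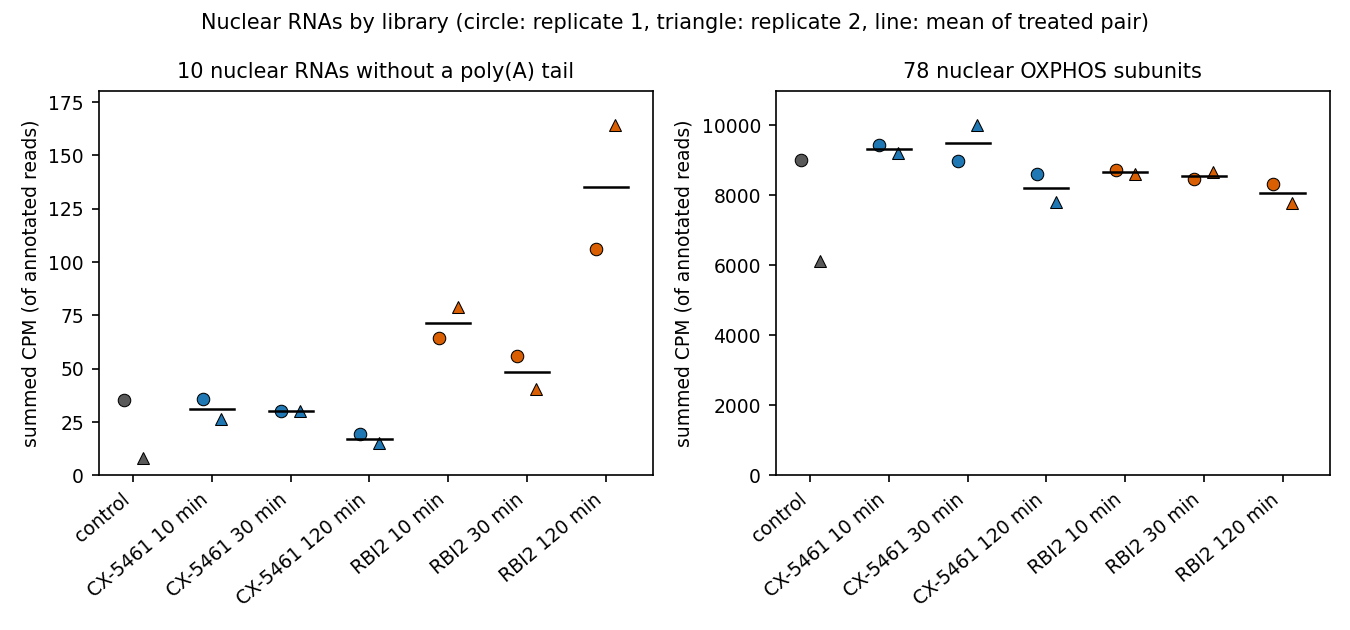
Summed CPM of the 10 nuclear RNAs without a poly(A) tail and of the 78 nuclear subunits of oxidative phosphorylation in each of the 14 libraries; circles are replicate 1, triangles replicate 2 and lines the mean of a treated pair. The RBI2 libraries are highest in the first panel (40.6 to 164 CPM), and control replicate 2 is lowest in the second (6126 CPM).

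MT-CYB (chrM:14747-15887, plus strand) encodes cytochrome b, the core subunit of complex III, and was lowest with CX-5461 at 10 min. Its TMM-scaled CPM was 4402 and 10738 in the controls, 2364 and 2269 in the 10 min CX-5461 pair, 4105 and 3914 in the 30 min pair and 3631 and 3774 in the 120 min pair. The RBI2 pairs had 3751 and 3924 (10 min), 4310 and 3735 (30 min) and 4233 and 5126 (120 min). The CX-5461 pair at 10 min was thus the lowest of all 14 libraries. As a share of the mitochondrial mRNA reads, which does not depend on the depth of the whole library, MT-CYB made up 2.94% and 3.003% in that pair and 4.55% to 5.24% in the other 12 libraries, with control replicate 2 at 4.68%. Against control the log2 fold change was -1.71 (SE 0.299, edgeR adjusted p = 0.00889), and it was -0.93 (edgeR adjusted p = 6.1e-04) without control replicate 2. Without either CX-5461 replicate the fold change stayed between -1.72 and -1.64 but was not called, at edgeR adjusted p = 0.0779 and 0.0926. Among the 12 treated libraries MT-CYB was higher with RBI2 than with CX-5461 at 10 min by 0.72 (SE 0.0879, edgeR adjusted p = 6.6e-04), against 0.73 (SE 0.292, adjusted p = 0.276) with all 14.

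MT-ND6 (chrM:14149-14673, minus strand), a complex I subunit, was the exception among the mRNAs in control replicate 2. Its TMM-scaled CPM was 352 in control replicate 1 and 181 in control replicate 2, the lowest of all 14 libraries. The CX-5461 pairs had 226 and 201 (10 min), 267 and 297 (30 min) and 216 and 228 (120 min). The RBI2 pairs had 238 and 257 (10 min), 352 and 317 (30 min) and 350 and 327 (120 min). At each label both RBI2 libraries lay above both CX-5461 libraries. None of the 10 comparisons of MT-ND6 was called in the filtered edgeR fit of all 14 libraries, and at 120 min the difference between compounds was 0.61 (SE 0.225, edgeR adjusted p = 0.0903). DESeq2 called that difference, at 0.64 (adjusted p = 0.0300), and so did edgeR with no filter on low counts, at 0.63 (adjusted p = 5.6e-07). Among the 12 treated libraries it was 0.66 (SE 0.0848, edgeR adjusted p = 9.4e-04) at 120 min and 0.37 (SE 0.0489, edgeR adjusted p = 7.8e-04) over all times. Without control replicate 2, MT-ND6 was lower than the lone control with CX-5461 at 10 min by -0.72 (edgeR adjusted p = 0.00290) and at 120 min by -0.69 (edgeR adjusted p = 0.0414). The kit was stranded, but the strand setting of the quantification is not given in the sources used here, so reads of MT-ND6 and of precursor RNA from the opposite strand cannot be told apart.

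The other mRNAs differed less between groups than the control libraries did between themselves. The level per length, in TPM (reads scaled by transcript length and by the library), had a median over the 13 libraries without control replicate 2 of 18881 for MT-ATP6, 16907 for MT-ATP8, 15574 for MT-CO2 and 14654 for MT-CO3. It was 12349 for MT-ND4, 12326 for MT-CO1, 10914 for MT-ND2, 8974 for MT-ND1, 8447 for MT-ND3 and 6492 for MT-ND4L. At the low end it was 4258 for MT-CYB, 2044 for MT-ND5 and 747 for MT-ND6, with 6004 for MT-RNR2 and 1421 for MT-RNR1. The ATP synthase mRNAs and the cytochrome oxidase mRNAs MT-CO2 and MT-CO3 were thus the most abundant per length, and neighbours in this order of mRNAs overlapped in their ranges down to MT-ND5. MT-ND5 had 1461 to 3007 TPM and did not overlap MT-ND6, at 476 to 1016 TPM.

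In control replicate 2, 12 of the 13 mRNAs had the highest TMM-scaled CPM of all 14 libraries. The ratio of control replicate 2 to control replicate 1 was 3.94 for MT-ATP8, 3.71 for MT-ND4L and 3.42 for MT-ND5, and its median over the mRNAs was 2.77. It was 0.515 for MT-ND6, 2.13 for MT-RNR2 and 1.27 for MT-RNR1. Among the mRNAs the excess was therefore uneven, being largest in MT-ATP8 and MT-ND4L and absent in MT-ND6.

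**Figure D4:**
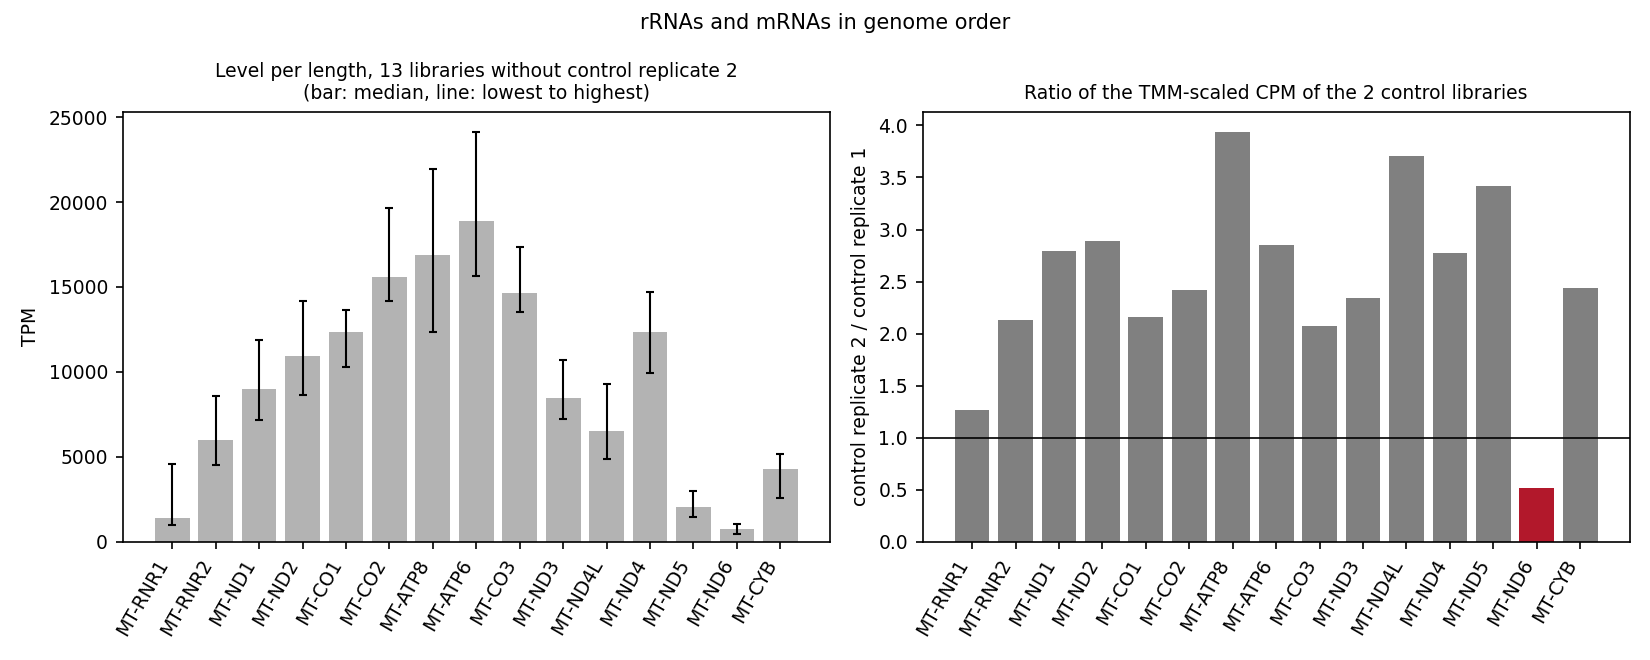
Left, TPM of the 2 rRNAs and 13 mRNAs in genome order (bars are the median and lines the lowest to highest value over the 13 libraries without control replicate 2); right, ratio of TMM-scaled CPM in control replicate 2 to that in control replicate 1. MT-ATP6 has the highest median (18881 TPM), and MT-ND6 is the only gene shown with a ratio under 1 (0.515).

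Against control, few mitochondrial genes were called in edgeR among the 30 that passed the filter. With RBI2 at 10 min, edgeR called 0 of 30 (0.201% of all genes tested). At an unadjusted p under 0.05 there were 21 (12.9% of all genes), and DESeq2 called 2, both lower (1.14%). At 30 min edgeR called 0 (0.0713% of all genes), with 17 unadjusted (25.8%) and 9 by DESeq2 (6.37%), all 9 lower. At 120 min edgeR called 2, both higher (18% of all genes, 8.9% higher): MT-RNR1 and the threonine tRNA MT-TT. There were 16 unadjusted (35.9%), and DESeq2 called 6 (21.2%), of which 1 was higher and 5 were lower. The edgeR count was 1 without either RBI2 library of that label, when the share of all genes fell to 0.448% (without replicate 1) and 0.988% (without replicate 2). With CX-5461 at 10 min edgeR called 1, MT-CYB, lower (4.77% of all genes, 2.98% lower), with 17 unadjusted (22.5%) and 8 by DESeq2 (5.78%), all 8 lower. At 30 min edgeR called 0 (0% of all genes), with 19 unadjusted (22.9%) and 0 by DESeq2 (0.162%). At 120 min edgeR called 0 (0.0778% of all genes), with 20 unadjusted (12.4%) and 2 by DESeq2 (0.577%), both lower. With no filter on low counts, when all 37 were tested, edgeR called 20, 21 and 19 with RBI2 at 10, 30 and 120 min (2.79%, 6.7% and 11% of all genes), of which 19, 17 and 16 were lower. With CX-5461 it called 17, 19 and 19 (6.78%, 6.25% and 1.9% of all genes), of which 16, 18 and 18 were lower.

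These 6 comparisons share the control pair and turn on its second library. The median log2 fold change of the 30 genes lay between -0.996 and -0.621, against -0.05 to 0.06 for all genes tested. Without control replicate 2 it lay between -0.22 and 0.07, and in the same order of comparisons edgeR called 0, 0, 2, 2, 0 and 1 of the 30 genes, beside 0.228%, 0.0247%, 8.27%, 3.01%, 0% and 0.105% of all genes. Without control replicate 1 it lay between -1.41 and -1.06, and edgeR called 22, 20, 21, 19, 21 and 20 genes, beside 29.1%, 38.3%, 43.1%, 37.7%, 39.3% and 21.5% of all genes. The lower median of the mitochondrial genes in treated cells was thus much smaller without control replicate 2, when it remained below 0 in 5 of the 6 comparisons and was 0.07 with RBI2 at 120 min.

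Between the compounds, edgeR with all 14 libraries called 0 of 30 genes at 10 min (3.06% of all genes), with 2 unadjusted (14.2%) and 0 by DESeq2 (3.57%). At 30 min it called 0 (0.013% of all genes), with 1 unadjusted (7.79%) and 0 by DESeq2 (0.305%). At 120 min it called MT-RNR1 alone (16.1% of all genes, 5.28% higher), with 5 unadjusted (31.6%) and 3 by DESeq2 (17.3%). That share of all genes rested on single libraries: it was 0.187% without RBI2 replicate 1, 0.0371% without RBI2 replicate 2 and 0.414% without CX-5461 replicate 2. MT-RNR1 was called without RBI2 replicate 1 and without CX-5461 replicate 2. Over all times it called 3, all higher with RBI2 (8.59% of all genes, 6.01% higher): MT-RNR1 by 0.80 (SE 0.129, edgeR adjusted p = 0.00549), and the isoleucine and cysteine tRNAs MT-TI and MT-TC. There were 6 unadjusted (26.7%) and 2 by DESeq2 (11.2%). With no filter on low counts edgeR called 3 of 37 at 10 min (2.72% of all genes), 2 at 30 min (1.06%), 13 at 120 min (8.49%) and 9 over all times (6.44%), all higher with RBI2 except 1 at 10 min and 1 over all times. The median log2 difference of the 30 genes was 0.00, 0.10 and 0.35 at 10, 30 and 120 min, against 0.01, 0.01 and 0.01 for all genes.

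The fit of only the 12 treated libraries called more genes. At 10 min it called MT-CYB higher and MT-RNR2 lower with RBI2 (6.88% of all genes), and at 30 min none (0.123% of all genes, 4 of 30 unadjusted). DESeq2 was not run on these 12 libraries alone. The change with time of the difference between compounds was called for 1 of the 30 genes from 10 to 30 min (1.8% of all genes), for 4 from 10 to 120 min (18.1%) and for 1 from 30 to 120 min (3.03%). A fit of only the 4 libraries compared called 3 of 25 genes at 10 min (10.6% of all genes), 0 of 30 at 30 min (0.3%) and 9 of 26 at 120 min (22.8%). At 120 min the fit of the 12 libraries called 13 of 30, all higher with RBI2, beside 29.6% of all genes called and 13.9% called higher. The 13 were MT-RNR1 by 2.04, MT-ND6 by 0.66, MT-ND2 by 0.44, MT-ND1 by 0.41, MT-CYB by 0.39, MT-CO2 by 0.35, MT-ND3 by 0.34, MT-CO3 by 0.30 and 5 tRNAs. MT-CO2 and MT-CO3 encode subunits of complex IV, and the ND genes encode subunits of complex I. Over all times it called 10, of which 9 were higher and MT-RNR2 was lower by -0.17 (22.8% of all genes).

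At 120 min the RBI2 libraries had a TMM-scaled CPM of 7589 and 9518 for MT-ND1, whereas the CX-5461 libraries had 6741 and 6595. For MT-ND2 the RBI2 libraries had 8295 and 10414, and the CX-5461 libraries 7129 and 7181. In both genes the RBI2 pair lay above the CX-5461 pair. MT-ND4L differed the other way without being called, by -0.19 (95% interval -0.40 to 0.03). When libraries were scaled to their mitochondrial mRNA instead, MT-RNR1 was still higher than control in RBI2 at 120 min, by 2.34 (edgeR adjusted p = 0.0147, 0.194% of all genes called). It was higher than in CX-5461 by 1.78 but missed the threshold (edgeR adjusted p = 0.0797, 0.013% of all genes called). No mRNA was called under that scaling. It sets the summed mRNA reads equal in all libraries, so a change shared by the mRNAs could not be seen. The scaling moved the median of all genes by 0.48 to 0.74 on the log2 scale in the comparisons with control.

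**Figure D5:**
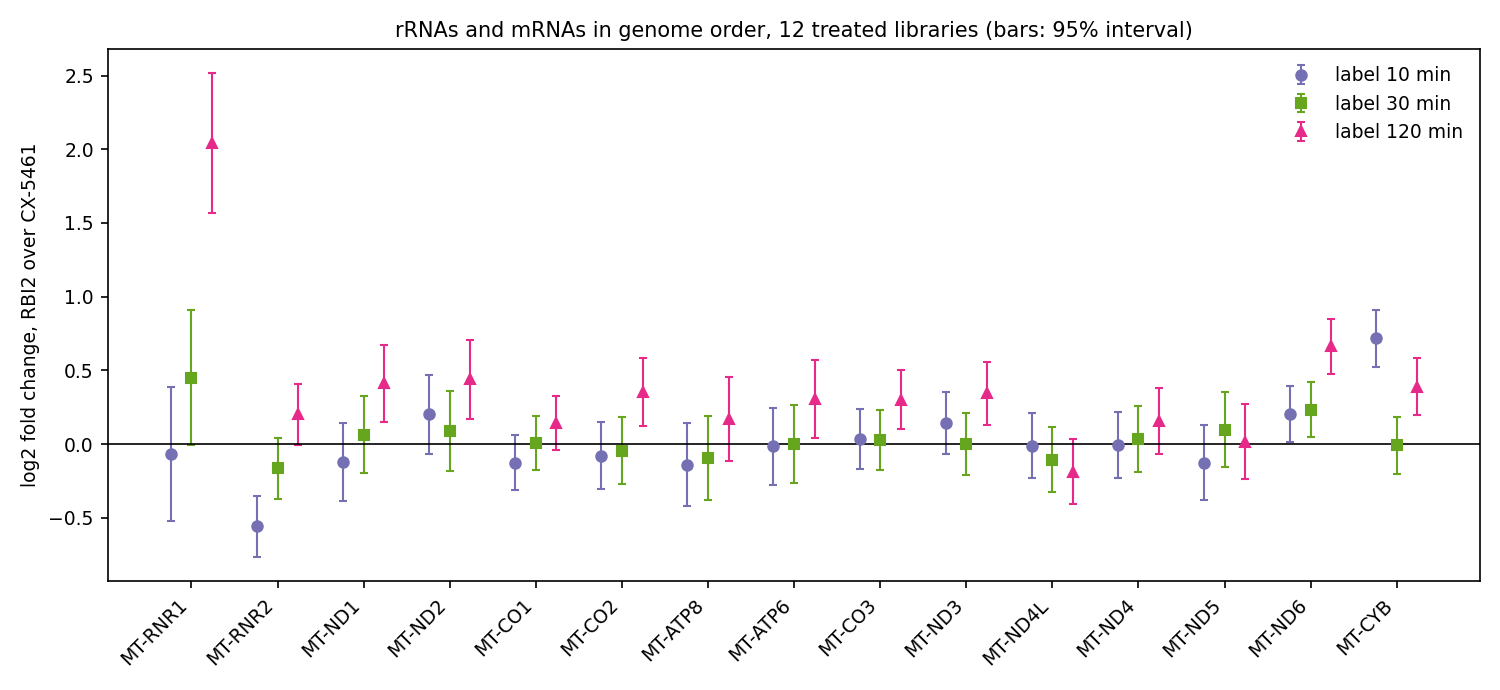
Log2 fold change of RBI2 over CX-5461 for the 2 rRNAs and 13 mRNAs in genome order at the 3 time labels, from the edgeR fit of the 12 treated libraries; bars are 95% intervals. MT-RNR1 at 120 min stands at 2.04, MT-RNR2 at 10 min at -0.56 and MT-CYB at 10 min at 0.72.

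The 22 tRNAs together took 0.00493% to 0.0124% of the reads, so their values are thin. Of these, 13 had a mean of at least 10 reads per library, the most being the leucine tRNA MT-TL1 with a mean of 387, the serine tRNA MT-TS1 with 222 and the isoleucine tRNA MT-TI with 174. The others were MT-TE (glutamate) with a mean of 96 reads, MT-TQ (glutamine) with 76.1, MT-TM (methionine) with 25, MT-TA (alanine) with 23.5, MT-TD (aspartate) with 15.6, MT-TK (lysine) with 13.6, MT-TV (valine) with 12.6, MT-TN (asparagine) with 10.7, MT-TC with 10.3 and MT-TT with 10.1. The filter passed 15, and 7 were not tested. MT-TG, the glycine tRNA, had 1 read in 1 library and 0 in the other 13. The tRNAs called over all times are shown whole, since they lie on opposite strands, at chrM:4263-4331 (plus strand) and chrM:5761-5826 (minus strand).
MT-TI: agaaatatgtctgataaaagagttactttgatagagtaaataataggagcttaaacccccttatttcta
MT-TC: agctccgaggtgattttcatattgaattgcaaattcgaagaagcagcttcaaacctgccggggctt
MT-TI shares 3 bases with MT-TQ, which lies on the other strand, and MT-TC shares 1 with MT-TY. MT-TI had 196 and 80 reads in the controls, a TMM-scaled CPM of 4.98 to 10.0 over the CX-5461 libraries and 8.62 to 14.6 over the RBI2 libraries, so the compounds overlapped across times. Its difference over all times was 0.72 (SE 0.169, edgeR adjusted p = 0.0286). With each treated library left out in turn, this difference stayed between 0.60 and 0.81. The call was lost without any 1 of the treated libraries other than replicate 1 of CX-5461 and replicate 2 of RBI2 at 120 min. MT-TC had only 4 to 19 reads per library and differed by 0.97 (SE 0.251, edgeR adjusted p = 0.0404). It was likewise lost (edgeR adjusted p = 0.0705 to 0.144) except without replicate 2 of CX-5461 at 30 min or replicate 1 of RBI2 at 10 min. MT-TT had 1 and 0 reads in the controls and 14 and 7 reads in RBI2 at 120 min (edgeR adjusted p = 0.0217), too few to give a fold. The call was lost without control replicate 2 (edgeR adjusted p = 0.0878) and without replicate 1 or 2 of RBI2 at 120 min (edgeR adjusted p = 0.131 and 0.0675). Its CX-5461 libraries had 11 and 21 reads at 30 min and 25 and 9 reads at 120 min.

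Nuclear genes that serve these RNAs were counted from lists of their roles. The counts of the 3 lists at 120 min rested on both RBI2 libraries: without either, edgeR called 0 genes of each list against control and against CX-5461, and 0 against CX-5461 without CX-5461 replicate 2. The share of all genes fell in these fits as given above. Among 13 genes of mitochondrial transcription and replication, 2 were higher and 2 lower with RBI2 at 120 min than control in edgeR, beside 8.9% of all genes higher and 9.07% lower. POLRMT, the mitochondrial RNA polymerase, rose by a log2 fold change of 0.77 (edgeR adjusted p = 0.0136), with a TMM-scaled CPM of 28.7 and 20.5 in the controls and 45.9 and 38.5 in RBI2 at 120 min. TFAM, which packages mitochondrial DNA and helps to start transcription, fell by 0.27 (edgeR adjusted p = 0.0300), and the transcription factor TFB2M fell by 0.43 (edgeR adjusted p = 0.0345). Without control replicate 2, edgeR called 2 of the 13 rather than 4 (8.27% of all genes). POLRMT was then still called, at 0.55 (edgeR adjusted p = 0.0325), whereas TFAM stood at -0.24 (edgeR adjusted p = 0.0666) and TFB2M at -0.43 (edgeR adjusted p = 0.0823). Against CX-5461 at 120 min TFAM was lower by -0.46 (edgeR adjusted p = 0.00702) and TFB2M by -0.44 (edgeR adjusted p = 0.0318), with 1 gene of the list higher (5.28% of all genes higher, 10.9% lower). The TMM-scaled CPM of TFAM was 129 and 130 in the RBI2 pair, below the 170 and 185 of the CX-5461 pair. POLRMT differed by 0.41 in that comparison without being called (edgeR adjusted p = 0.0859). Its CX-5461 libraries of all labels, at 31.6 to 38.8, also lay above both controls. TWNK, the mitochondrial DNA helicase, was higher with RBI2 than with CX-5461 at 10 min by 0.33 (edgeR adjusted p = 0.0455) and over all times by 0.28 (edgeR adjusted p = 0.00472), and TFAM was lower over all times by -0.19 (edgeR adjusted p = 0.0219). The 10 min call of TWNK was lost without replicate 1 or 2 of RBI2, or replicate 2 of CX-5461, at 120 min. Over all times fewer genes of the list were called without either RBI2 library at 120 min. POLG2, the accessory subunit of the mitochondrial DNA polymerase, was lower than control with CX-5461 at 10 min by -0.45 (edgeR adjusted p = 0.0370), and stood at -0.32 without control replicate 2 (edgeR adjusted p = 0.160). MTERF1, a termination factor that binds downstream of the rRNA genes, was not called in any of the 10 edgeR comparisons and differed from CX-5461 at 120 min by -0.38 (edgeR adjusted p = 0.0766).

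Of 21 genes of mitochondrial RNA processing, stability and decay, 7 were lower and 0 higher with RBI2 at 120 min than control, beside 9.07% of all genes lower and 8.9% higher. Against CX-5461, 5 were lower and 0 higher, beside 10.9% and 5.28% of all genes. LRPPRC, which binds and stabilises mitochondrial mRNAs, fell by 0.54 against control (edgeR adjusted p = 0.0205) and was lower than with CX-5461 by -0.77 (edgeR adjusted p = 0.00788). At 120 min its TMM-scaled CPM was 249 and 255 in the RBI2 pair, 401 and 456 in the CX-5461 pair, and 318 and 418 in the controls. FASTKD1, of a family of mitochondrial RNA-binding proteins, was lower than with CX-5461 at 120 min by -0.55 (edgeR adjusted p = 0.0256), and LRPPRC was lower over all times by -0.31 (edgeR adjusted p = 0.0283). The call of LRPPRC over all times was lost without replicate 1 or 2 of RBI2, or replicate 2 of CX-5461, at 120 min. GRSF1, an RNA-granule protein that binds light-strand transcripts, fell by 0.69 against control (edgeR adjusted p = 0.0207). With all 14 libraries MTPAP was not called in any of the 10 comparisons and differed from control by -0.21 with RBI2 at 120 min (edgeR adjusted p = 0.0983). Between the compounds at 10 min it differed by 0.31 (edgeR adjusted p = 0.0883), and without control replicate 2 by 0.29, which was called (edgeR adjusted p = 0.0345). Without control replicate 2, 1 gene of the list rather than 7 was called against control (8.27% of all genes). LRPPRC then stood at -0.34 (edgeR adjusted p = 0.0588) and GRSF1 at -0.41 (edgeR adjusted p = 0.0662). The median over the list was -0.11 against control and -0.20 against CX-5461 at 120 min, beside 0.01 for all genes in both.

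Of the 78 nuclear genes for subunits of oxidative phosphorylation, 2 were lower with RBI2 at 120 min than control, 3 were lower than with CX-5461 at 120 min and 2 over all times, and none was higher in these. Of all genes, 9.07%, 10.9% and 2.58% were lower in the same comparisons. The largest of these differences from control was that of NDUFA5, a complex I subunit, at -0.31 (edgeR adjusted p = 0.0239), followed by ATP5PB, a subunit of the ATP synthase, at -0.19 (edgeR adjusted p = 0.0494). Without control replicate 2, NDUFA5 stood at -0.23 and ATP5PB at -0.21, and neither was called. Against CX-5461 at 120 min the complex I subunit NDUFS1 was lower by -0.31 (edgeR adjusted p = 0.0334) and the ATP synthase subunit ATP5F1A by -0.34 (edgeR adjusted p = 0.0495). Over all times NDUFA10, of complex I, was lower by -0.18 (edgeR adjusted p = 0.0442) and ATP5PB by -0.15 (edgeR adjusted p = 0.0273). Both calls over all times were lost without replicate 1 or 2 of RBI2, or replicate 2 of CX-5461, at 120 min. In the other 7 comparisons edgeR called none of the 78, beside 0% to 4.77% of all genes. DESeq2 called 4 with RBI2 at 30 min against control (6.37% of all genes), 1 with CX-5461 at 10 min (5.78%), 1 with CX-5461 at 120 min (0.577%) and 0 in the other 4. At an unadjusted p under 0.05 there were 20 between the compounds at 30 min (7.79% of all genes), with a list median of -0.19. There were 25 with CX-5461 at 30 min against control (22.9% of all genes), with a list median of 0.20. The unadjusted counts against control were 4, 12, 13 and 14 with RBI2 at 10 min (12.9% of all genes), RBI2 at 30 min (25.8%), CX-5461 at 10 min (22.5%) and CX-5461 at 120 min (12.4%), and the count between the compounds at 10 min was 3 (14.2%). In the fit of the 12 treated libraries 12 of the 78 were called over all times, a smaller share than the 22.8% of all genes. At 120 min that fit called 5 of the 78, beside 29.6% of all genes. Without control replicate 2, more of the 78 and more of all genes were called between the compounds at 120 min and over all times.

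The nuclear genome holds copies of mitochondrial genes, and reads could be assigned to either. Of 404 listed copies, 71 had a read, and their reads together came to 1.48% to 2.19% of the mitochondrial reads. The largest was MTATP6P1 on chromosome 1 (hg38 chr1:633696-634376, plus strand), identical to MT-ATP6 at 98.5% of aligned bases, with reads equal to 9.15% to 14.1% of those of MT-ATP6. MTCO1P12 had 1.62% to 2.85% of the reads of MT-CO1, and MTND2P28 had 1.56% to 3.11% of those of MT-ND2. MTND4P12 and MTND1P23 stayed at or below 0.111% and 0.234% of the reads of MT-ND4 and MT-ND1. The values of these 5 mRNAs are uncertain by such amounts, most of all MT-ATP6.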

How the data were processed

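MDA-MB-231 RNA was captured by poly(A), sequenced from stranded libraries and quantified by the authors. They set aside reads aligned to ribosomal DNA and mapped the rest to GRCh38 transcripts; the submitters' notes name STAR 2.7.6a, SAMtools 1.11, bedtools 2.29.2, Salmon 1.3.0 and DESeq2 1.28.1. The deposited values are estimated counts and TPM per transcript. The annotation release is not given in the sources used here.

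Estimated counts were summed by gene with GENCODE 44 (225662 of 228754 transcripts matched; 1.03% to 1.13% of reads fell on the others) and rounded. All 14 libraries in 7 groups entered edgeR 4.0.16 (R 4.3.3): TMM, filterByExpr with a minimum count of 10, quasi-likelihood test, Benjamini-Hochberg adjustment over 15426 genes, calls at an adjusted p under 0.05. The common coefficient of variation was 12.3%. The code was tested on simulated data. CPM are estimated counts scaled to the annotated reads of a library. Shares, ratios and TPM carry no test. Named were all mRNAs and rRNAs, tRNAs with a mean of at least 10 reads, POLRMT, TFAM, MTERF1, LRPPRC and MTPAP, the 2 called genes of each list with the largest change per comparison, and the 5 nuclear copies with most reads. MT-TG was named after its values were seen. The members and lists were chosen with earlier results of these data known. Alternatives were DESeq2 1.42.0, no filter, other scalings, a fold limit, unadjusted p, a replicate block, fewer libraries and, chosen after seeing the data, the 12 treated libraries alone.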

Additional observations from a re-analysis of the deposited data

Results flagged for a closer look

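A difference between compounds that itself differed between time labels was found for MT-RNR1 with all 14 libraries. The RBI2 minus CX-5461 log2 difference was larger at 120 min than at 10 min by 2.05 (SE 0.316, edgeR adjusted p = 0.0112). The test was added after seeing the data. In the 12 treated libraries this value was 2.11 (SE 0.295, edgeR adjusted p = 0.00262), and the change from 30 to 120 min was 1.59 (SE 0.294, edgeR adjusted p = 0.0436).

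Another 4 genes differed in the same way in the 12 treated libraries only, where 1.8% of all genes were called from 10 to 30 min, 18.1% from 10 to 120 min and 3.03% from 30 to 120 min. From 10 to 30 min the difference between compounds in MT-CYB changed by -0.73 (SE 0.124, edgeR adjusted p = 0.0130). From 10 to 120 min it changed by 0.76 in MT-RNR2 (SE 0.133, edgeR adjusted p = 0.00611), by 0.46 in MT-ND6 (SE 0.120, edgeR adjusted p = 0.0259) and by 1.104 in the glutamine tRNA MT-TQ (SE 0.303, edgeR adjusted p = 0.0312), which had 41 to 103 reads in these libraries. Groups of 2 libraries are too small for a search for a library that stands apart within its group, so control replicate 2 was not tested as one.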

How the results depend on the processing

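Of the alternative values of counts, shares and ratios, 203 stayed within a limit and 77 did not. The limit was 1.5 times the reported count, or 1 SD between replicates of the reported share or ratio. For a share or ratio with 1 library of its pair left out, this limit could not be exceeded. Either of 2 libraries always lies within 1 SD of their mean, so those values do not bear on stability. Of the alternative values of single called genes, 105 kept their call, 36 lost it and none reversed. Counts of mitochondrial genes called are given below in the order RBI2 at 10, 30 and 120 min against control, CX-5461 at 10, 30 and 120 min against control, then RBI2 against CX-5461 at 10, 30 and 120 min and over all times. Reported were 0, 0, 2, 1, 0, 0, 0, 0, 1 and 3. DESeq2 gave 2, 9, 6, 8, 0, 2, 0, 0, 3 and 2. No filter on low counts gave 20, 21, 19, 17, 19, 19, 3, 2, 13 and 9, with 16 to 19 lower in each comparison with control. An unadjusted p gave 21, 17, 16, 17, 19, 20, 2, 1, 5 and 6. Scaling to mitochondrial mRNA gave 1 in the third and 0 in the others. Only the groups compared gave 0 of the 25 to 30 genes tested in the control comparisons, beside 0% to 0.0208% of all genes. Between the compounds they gave 3 of 25, 0 of 30, 9 of 26 and 10 of 30, beside 10.6%, 0.3%, 22.8% and 22.8% of all genes. The 12 treated libraries gave 2, 0, 13 and 10 in the last 4. Over all times both alternatives are the same fit, since the groups compared are then all the treated groups. The fold limit of 1 on the log2 scale gave 0 over all times and left the others as they were. The cause of these changes was not tested. TMM without the mitochondrial genes gave the reported counts. Across genes, the deviations of same-numbered replicates from their group means correlated by -0.179 to 0.180 between groups. These values cannot tell whether same-numbered replicates shared a batch. With a replicate block the counts were 0, 0, 2, 1, 0, 0, 0, 0, 2 and 2, beside 0.169%, 0.00648%, 15.5%, 4.22%, 0%, 0.0648%, 2.72%, 0.013%, 14.5% and 7.25% of all genes. Leaving out each library in turn gave counts of 0 to 22, 0 to 20, 1 to 21, 0 to 19, 0 to 21, 0 to 20, 0 to 2, 0 to 0, 0 to 13 and 1 to 10. The highest counts against control came without control replicate 1, and those between compounds at 120 min and over all times without control replicate 2, with 27.9% and 22.8% of all genes called.

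The mean share of reads of CX-5461 at 120 min was 8.62% and became 8.79% with the nuclear copies added. By summed TPM the mean rRNA to mRNA ratio was 0.0395 in the control, 0.0627, 0.0558 and 0.0566 with CX-5461 at 10, 30 and 120 min, and 0.0468, 0.0558 and 0.0765 with RBI2. With the copies added it was 0.0811 and 0.0899 with CX-5461 at 30 and 120 min. Depth limits the tRNAs, most of which had under 30 reads per library.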
